A study of Mus musculus with 10 samples.

Results

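Inflammatory cytokine and inflammasome genes were followed in the epididymal fat pad (white adipose tissue of the visceral kind) of diet-fed male mice with and without serglycin. The group holds 10 named genes (Tnf, Il1b, Il1rn, Il6, Il18, Nlrp3, Casp1, Nos2, Saa3 and Osm), each read as 1 row of a table of 23930 genes. The genes were chosen by name, as secreted inflammatory mediators and the proteins that process them, with earlier results of these data known. All 10 were present in the table. The animals were C57BL/6 males aged 18 weeks given high sucrose and high fat feed during 8 weeks. Of the 10 mice, 5 lacked serglycin (Srgn-/-) and 5 were wild type (Srgn+/+), and every animal of both genotypes had the diet. Srgn encodes serglycin, a proteoglycan stored in secretory granules of blood-derived cells, and nothing in the labels restricts its loss to a cell type. Animals are numbered 1 to 5 within a genotype, and equal numbers pair no animals.

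Pro-inflammatory cytokines of obese fat are made largely by macrophages that gather around dying fat cells. IL-1β and IL-18 are made as precursors without activity. The sensor NLRP3 and the protease caspase-1 form the inflammasome, which cuts both precursors into their active forms, and IL-1 receptor antagonist (Il1rn) blocks the receptor that IL-1β uses. TNF, IL-6 and oncostatin M (Osm) are secreted signals, serum amyloid A3 (Saa3) is an acute phase protein made in inflamed fat, and Nos2 encodes the inducible nitric oxide synthase. The level of an mRNA does not show how much of a precursor was cut.

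A single short amplicon was read for each gene, and the 10 libraries held 7824764 to 10757779 reads. Levels are given as reads scaled to library size (CPM), after adjustment of each library by its TMM factor, and 3 reads, the limit that a count of 0 allows, correspond to 0.287 to 0.398 CPM. These limits cover counting error alone. Amplicons differ in efficiency, so levels are compared between animals and not between genes. In whole tissue, fewer cells of a type and less RNA per cell cannot be told apart.

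The start regions of the genes are shown first, as a description, and whether they bear on the levels of the genes was not tested. Of the 10 genes, 8 had at least 1 start region in RefSeq (build GRCm38.p6), 11 regions in all. The 250 bases before each start were searched on both strands for 2 motifs, the NF-κB consensus and the C/EBP motif TTNNGCAA. The NF-κB consensus was found in 2 of the 11 regions, against 7.25% of 32851 regions of the same length over all genes. The C/EBP motif was found in 2 of the 11 regions, against 9.56% of all. Some regions of Il1rn overlap each other, so the 11 regions are not independent. The regions that held a motif are printed with that of Casp1, which held neither motif. Casp1 followed Saa3 across the animals by r (0.86) and not by rho, and Il1rn had a higher r with Saa3 (0.95). The regions of Tnf, Il1b, Il1rn and Il18, which are not printed, held neither motif as well. Capitals mark the motifs, C/EBP in Saa3, C/EBP and then NF-κB in Il6, and NF-κB in the region of Nlrp3 that is printed. Another region of Nlrp3, chr11:59542436-59542685, held neither motif.
Saa3, chr7:46715677-46715926, minus strand: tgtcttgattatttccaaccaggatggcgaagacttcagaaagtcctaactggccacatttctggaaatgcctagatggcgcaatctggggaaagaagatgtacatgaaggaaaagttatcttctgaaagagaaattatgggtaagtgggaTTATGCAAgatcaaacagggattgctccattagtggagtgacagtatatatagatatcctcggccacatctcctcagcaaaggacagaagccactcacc
Casp1, chr9:5298267-5298516, plus strand: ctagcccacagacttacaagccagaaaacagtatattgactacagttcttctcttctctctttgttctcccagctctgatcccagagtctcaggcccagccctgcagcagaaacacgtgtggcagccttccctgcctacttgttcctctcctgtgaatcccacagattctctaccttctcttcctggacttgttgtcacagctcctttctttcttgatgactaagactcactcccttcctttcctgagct
Il6, chr5:30012864-30013113, plus strand: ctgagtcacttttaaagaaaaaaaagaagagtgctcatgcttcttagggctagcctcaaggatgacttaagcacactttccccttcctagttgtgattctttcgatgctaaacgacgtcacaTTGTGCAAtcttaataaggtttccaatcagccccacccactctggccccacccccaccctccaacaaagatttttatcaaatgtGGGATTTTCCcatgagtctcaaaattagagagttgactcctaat
Nlrp3, chr11:59541319-59541568, plus strand: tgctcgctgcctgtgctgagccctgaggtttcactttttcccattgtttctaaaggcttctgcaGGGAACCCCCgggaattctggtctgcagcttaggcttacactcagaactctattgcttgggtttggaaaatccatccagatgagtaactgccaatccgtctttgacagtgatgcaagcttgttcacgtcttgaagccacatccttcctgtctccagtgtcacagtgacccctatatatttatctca
The C/EBP match begins 99 bases before the start in Saa3 and 128 bases before it in Il6, and the NF-κB match begins 44 bases before it in Il6 and 186 in Nlrp3. A match of letters is a description and not a binding site. Saa3 and Il6, the genes with a C/EBP match, differed in what could be read of them: Saa3 had at least 165 reads in every library, and Il6 at most 7.

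The comparison of the genotypes asked whether loss of serglycin changes the inflammatory programme of obese visceral fat. The Srgn amplicon had 3, 1, 0, 0 and 12 reads in Srgn-/- animals 1 to 5 and 776, 1047, 1301, 851 and 1005 reads in Srgn+/+ animals 1 to 5. It is read here as a check of the genotype labels, with the reservation that no source used here says whether the amplicon lies inside the deletion. None of the inflammatory genes passed the test of genotype. Of the 8 members with enough reads to be tested, 0 had an adjusted p under 0.05 in the edgeR quasi-likelihood test, where 0.00786% of the 12719 genes tested did, a single gene that was Srgn itself. At an unadjusted p under 0.05 there were 0 of the 8 members, against 12.8% of all genes tested. With the DESeq2 Wald test 0 of the 7 members given an adjusted p passed (Osm was given none), against 1.82% of 12447 genes, and 0 of the 8 had an unadjusted p under 0.05, against 14% of all genes tested. Limma-voom was run with quality weights, by which libraries count unequally. With it 0 of the 8 passed, against 0.0786% of all genes tested. Under these weights 3 of the 8, Nlrp3, Casp1 and Nos2, had an unadjusted p under 0.05, against 20.9% of all genes tested. The ranges of the genotypes overlapped for all 10 members, while they did not overlap for 2.78% of the genes tested. Fold changes are log2 of Srgn-/- over Srgn+/+, with the standard error (SE) and the 95% interval of the edgeR fit. Values were lower in Srgn-/- for 6 of the 8 tested members and higher for 2, where 50.3% of all genes tested had lower values, and their SE ran from 0.206 for Il18 to 0.759 for Saa3, against a median of 0.165 over all genes tested. Tnf and Il6 did not pass the filter on low counts, with means under 1 CPM in both genotypes, and are near zero reads.

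**Figure D1:**
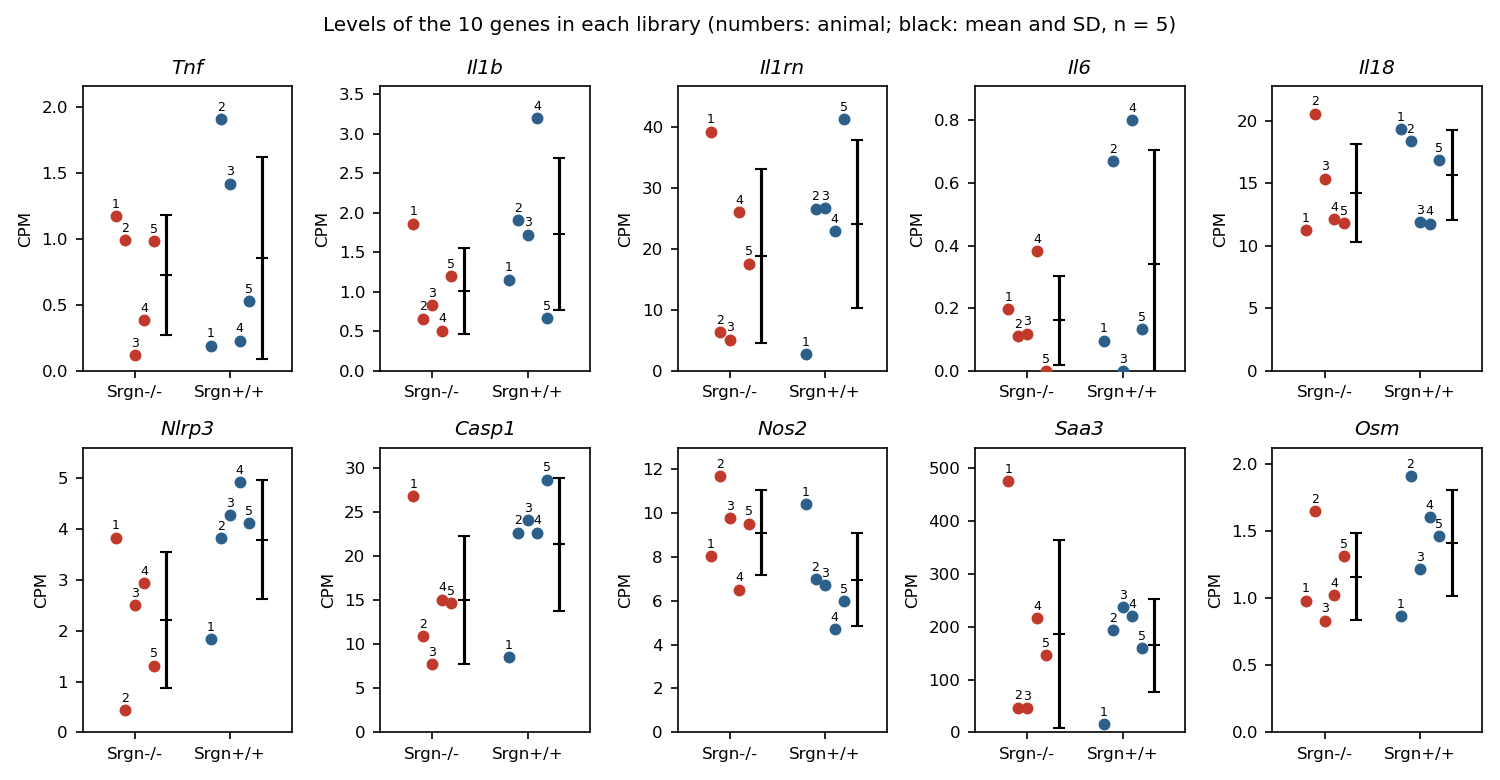
Level of each of the 10 genes (vertical axis, CPM with TMM factors, from 0) in every library, Srgn-/- at the left and Srgn+/+ at the right, with the animal's number at each point and the mean ± SD in black (n = 5). Srgn-/- animals 2 and 3 and Srgn+/+ animal 1 are the lowest for Il1rn, Casp1 and Saa3, and the genotypes overlap in every panel.

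Among the genes of the IL-1 system, the antagonist was far better covered than the cytokine. Il1b, which encodes the IL-1β precursor, had 19, 6, 7, 4 and 11 reads in Srgn-/- animals 1 to 5 and 12, 20, 17, 28 and 5 reads in Srgn+/+ animals 1 to 5. The highest count was in Srgn+/+ animal 4 and the lowest in Srgn-/- animal 4, and the counts of the genotypes overlapped, with Srgn+/+ animals 1, 3 and 5 inside the Srgn-/- range of CPM. The mean was 1.01 ± 0.540 CPM in Srgn-/- and 1.73 ± 0.958 CPM in Srgn+/+ (SD, n = 5 each), a log2 fold change of -0.75 (SE 0.465, 95% interval -1.76 to 0.26; edgeR adjusted p = 0.522). Leaving out 1 animal at a time moved the log2 value of Il1b between -1.10 and -0.42. Counting alone would give SDs of 0.338 CPM in Srgn-/- and 0.433 CPM in Srgn+/+ at these means. The annotation places Il1bos on the strand opposite Il1b, and whether reads were counted by strand is not given in the sources used here.

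Il1rn, the receptor antagonist, had 39.3, 6.38, 5.12, 26.0 and 17.6 CPM in Srgn-/- animals 1 to 5 and 2.79, 26.7, 26.7, 23.0 and 41.4 CPM in Srgn+/+ animals 1 to 5. Both genotypes spanned low and high animals, with the lowest and the highest level of all in Srgn+/+ animals 1 and 5. The highest level was 14.8 times the lowest. The means were 18.9 ± 14.3 CPM in Srgn-/- and 24.1 ± 13.9 CPM in Srgn+/+ (SD, n = 5 each), and the log2 fold change of -0.34 had an interval of -1.81 to 1.13 (SE 0.661, edgeR adjusted p = 0.857). Without Srgn-/- animal 1 the log2 value of Il1rn was -0.81, and leaving out each other animal in turn gave values up to -0.06. The interval over all animals allows a fold from 0.285 to 2.18 of the Srgn+/+ level, so a change of moderate size in either direction was not detectable among these animals. Counting error was a small part of this spread, at 1.46 CPM in Srgn-/- and 1.61 CPM in Srgn+/+.

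The inflammasome genes Nlrp3 and Casp1 had lower mean values in Srgn-/- that did not pass, and Il18 was close in both genotypes. Nlrp3, the sensor, had 39, 4, 21, 23 and 12 reads in Srgn-/- animals 1 to 5 and 19, 40, 42, 43 and 31 reads in Srgn+/+ animals 1 to 5. Srgn-/- animal 2 was the lowest, Srgn+/+ animal 1 lay within the Srgn-/- range, and Srgn-/- animal 1 and Srgn+/+ animal 2 had the same 3.82 CPM. The mean level was 2.20 ± 1.34 CPM in Srgn-/- and 3.79 ± 1.17 CPM in Srgn+/+ (SD, n = 5 each; log2 -0.77, SE 0.457, 95% interval -1.77 to 0.22, edgeR adjusted p = 0.502), and leaving out 1 animal at a time moved the log2 value between -1.08 and -0.51. The two-sided exact permutation test of the CPM means gave p = 0.0952 for Nlrp3, where the smallest p that 5 against 5 animals allow is 0.00794.

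Casp1, the protease of the inflammasome, had 26.8, 10.9, 7.74, 15.1 and 14.6 CPM in Srgn-/- animals 1 to 5 and 8.57, 22.6, 24.1, 22.6 and 28.7 CPM in Srgn+/+ animals 1 to 5. Srgn-/- animals 2 and 3 and Srgn+/+ animal 1 were low, and Srgn-/- animal 1 and Srgn+/+ animal 5 were high, as for Il1rn. The means were 15.02 ± 7.21 CPM in Srgn-/- and 21.3 ± 7.54 CPM in Srgn+/+ (SD, n = 5 each; log2 -0.50, SE 0.356, 95% interval -1.28 to 0.29, edgeR adjusted p = 0.580). The log2 fold change of Casp1 moved between -0.82 and -0.33 when 1 animal was left out, and it did not pass in any case. The value of -0.82 was the one without Srgn-/- animal 1.

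Il18, the other cytokine that caspase-1 cuts, had 11.3, 20.6, 15.4, 12.1 and 11.8 CPM in Srgn-/- animals 1 to 5 and 19.3, 18.3, 11.9, 11.8 and 16.9 CPM in Srgn+/+ animals 1 to 5. Its order was unlike that of Casp1, with Srgn-/- animal 2 and Srgn+/+ animal 1 as the highest. Its levels spanned 1.82 times from lowest to highest, the narrowest span of the 9 members with reads in every library. The log2 fold change was -0.14 (SE 0.206, 95% interval -0.59 to 0.31, edgeR adjusted p = 0.808), an interval of 0.666 to 1.24 for the level in Srgn-/- as a share of that in Srgn+/+. Leaving out 1 animal at a time moved the log2 value of Il18 between -0.31 and -0.05. In the annotation Bco2 and Tex12 lie on the strand opposite Il18.

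Of the other secreted cytokines, Tnf and Il6 were near zero reads, and Osm was low, with 7 to 20 reads in a library. Tnf had 12, 9, 1, 3 and 9 reads in Srgn-/- animals 1 to 5 and 2, 20, 14, 2 and 4 reads in Srgn+/+ animals 1 to 5. Each genotype held animals with 1 to 4 reads and animals with 9 or more. The mean was 0.730 ± 0.454 CPM in Srgn-/- and 0.857 ± 0.770 CPM in Srgn+/+ (SD, n = 5 each; two-sided exact permutation p = 0.754), and counting alone would give SDs of 0.287 CPM in Srgn-/- and 0.304 CPM in Srgn+/+.

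Il6 had 2, 1, 1, 3 and 0 reads in Srgn-/- animals 1 to 5 and 1, 7, 0, 7 and 1 reads in Srgn+/+ animals 1 to 5. That makes 7 reads in all in Srgn-/- and 16 in Srgn+/+, of which 14 were in Srgn+/+ animals 2 and 4. The 0 reads allow up to 0.328 CPM in Srgn-/- animal 5 and 0.305 CPM in Srgn+/+ animal 3. A difference was not detectable at this depth (0.162 ± 0.142 CPM in Srgn-/- and 0.340 ± 0.367 CPM in Srgn+/+, SD, n = 5 each; two-sided exact permutation p = 0.373).

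Osm, which encodes oncostatin M, had 10, 15, 7, 8 and 12 reads in Srgn-/- animals 1 to 5 and 9, 20, 12, 14 and 11 reads in Srgn+/+ animals 1 to 5. The genotypes overlapped over most of their ranges. The means were 1.16 ± 0.325 CPM in Srgn-/- and 1.41 ± 0.395 CPM in Srgn+/+ (SD, n = 5 each; log2 -0.28, SE 0.331, 95% interval -0.996 to 0.44, edgeR adjusted p = 0.753). Its spread was close to what counting alone would give, an SD of 0.362 CPM in Srgn-/- and 0.391 CPM in Srgn+/+, so differences between animals of a genotype were not detectable for Osm at this depth. Leaving out 1 animal at a time moved its log2 value between -0.44 and -0.14.

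Saa3 and Nos2, the effector genes, were the members with higher fitted values in Srgn-/-. Saa3 had 476, 46.8, 46.1, 217 and 146 CPM in Srgn-/- animals 1 to 5 and 15.9, 193, 236, 219.5 and 159.8 CPM in Srgn+/+ animals 1 to 5. The highest level was 29.9 times the lowest, the widest span of the members with reads in every library. Srgn-/- animal 1 stood above all others, and Srgn-/- animals 2 and 3 and Srgn+/+ animal 1 below. The log2 fold change of 0.18 (SE 0.759, 95% interval -1.51 to 1.87, edgeR adjusted p = 0.945) turned to -0.54 without Srgn-/- animal 1 and to -0.12 without Srgn+/+ animal 1, so its sign depended on single animals. Saa3 has close relatives in the serum amyloid A family, and how specific its amplicon is was not tested.

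Nos2 had 8.04, 11.7, 9.76, 6.51 and 9.51 CPM in Srgn-/- animals 1 to 5 and 10.4, 6.98, 6.70, 4.69 and 5.97 CPM in Srgn+/+ animals 1 to 5. Srgn+/+ animal 1 lay among the higher Srgn-/- animals, and Srgn-/- animal 4 among the Srgn+/+ animals. The means were 9.10 ± 1.94 CPM in Srgn-/- and 6.95 ± 2.12 CPM in Srgn+/+ (SD, n = 5 each; log2 0.38, SE 0.227, 95% interval -0.11 to 0.88, edgeR adjusted p = 0.502). Leaving out 1 animal at a time moved this value between 0.27 and 0.58, and 0.58 was the value without Srgn+/+ animal 1.

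**Figure D2:**
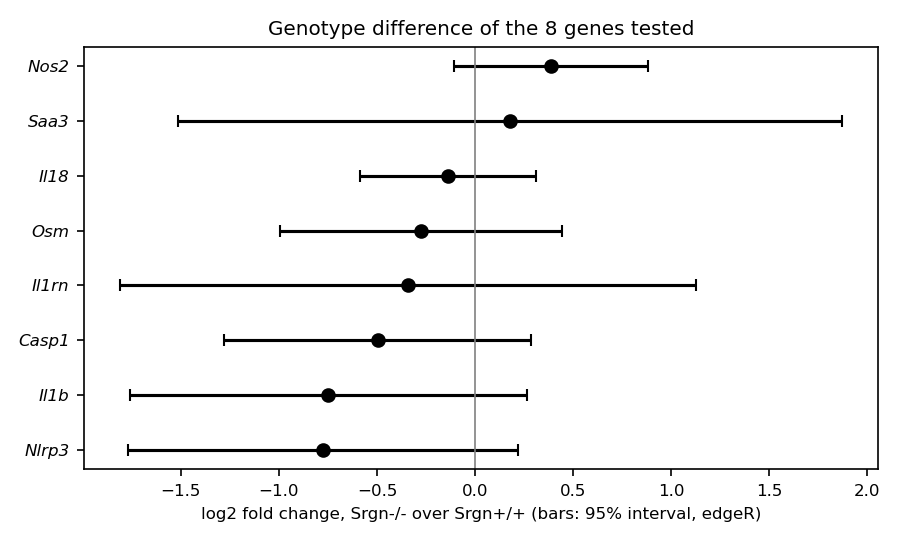
Fitted log2 fold change of Srgn-/- over Srgn+/+ (horizontal axis) for the 8 tested genes, with 95% intervals from edgeR. Every interval includes 0, and that of Saa3 is the widest, from -1.51 to 1.87.

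Macrophage RNA moved with several members across the animals. The macrophage marker level is the mean log2 CPM of 14 tested marker genes (among them Adgre1, Cd68, Lyz2, C1qb and Mrc1), none of which is a member. It was 5.67, 4.45, 4.65, 5.47 and 5.04 in Srgn-/- animals 1 to 5 and 4.36, 5.48, 5.91, 5.55 and 6.05 in Srgn+/+ animals 1 to 5. Over the 10 animals Casp1, Il1rn, Saa3 and Nlrp3 were higher where this level was higher, and Nos2 was lower. For Il1rn Pearson's r was 0.94 (two-sided permutation p = 0.00011, adjusted p = 0.00076 over the 8 members) and Spearman's rho 0.94 (permutation p = 0.00015, adjusted p = 0.0006). For Casp1 r was 0.93 (permutation p = 0.00019, adjusted p = 0.00076) and rho 0.95 (permutation p = 0.00012, adjusted p = 0.0006). For Saa3 r was 0.86 (permutation p = 0.00154, adjusted p = 0.00411) and rho 0.78 (permutation p = 0.0105, adjusted p = 0.0168). For Nlrp3 r was 0.78 (permutation p = 0.00484, adjusted p = 0.00774) and rho 0.85 (permutation p = 0.0031, adjusted p = 0.00827). Nos2 ran the other way, with r = -0.82 (permutation p = 0.00424, adjusted p = 0.00774) and rho = -0.79 (permutation p = 0.00884, adjusted p = 0.0168).

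Il18 (r = -0.54, permutation p = 0.108, adjusted p = 0.145; rho = -0.52, permutation p = 0.134), Il1b (r = 0.30, permutation p = 0.402, adjusted p = 0.405; rho = 0.35, permutation p = 0.331) and Osm (r = 0.29, permutation p = 0.405, adjusted p = 0.405; rho = 0.24, permutation p = 0.512) did not pass. Il1b and Osm had few reads, which limits any such relation. Many genes of the tissue follow this marker level: r was at least 0.7 for 14.7% of the 12719 genes tested, against 4 of the 8 members, and -0.7 or lower for 10.7%, against 1 of the 8 members. At least as high an r as that of Il1rn was reached by 1.80% of the genes tested, as that of Casp1 by 2.18%, as that of Saa3 by 6.00% and as that of Nlrp3 by 10.7%. At least as low an r as that of Nos2 was reached by 4.21%.

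The 5 relations passed by r with genotype means removed, and were then read without the animals farthest from the median marker level. With values centred within genotype, r was 0.97 for Il1rn, 0.92 for Casp1, 0.93 for Saa3, 0.74 for Nlrp3 and -0.80 for Nos2 (exact permutation within genotype, adjusted p = 0.00389, 0.00639, 0.00889, 0.0267 and 0.0292 in that order). The rank relation of Nlrp3 did not pass there (rho = 0.71, adjusted p = 0.0547 by the exact permutation). Each genotype alone has 5 animals, under the 6 needed for an r. The 2 animals farthest from the median marker level were Srgn+/+ animal 1 and Srgn-/- animal 2. Without them and without centring, r was 0.90 for Il1rn (exact permutation p = 0.00146) and 0.92 for Casp1 (exact permutation p = 0.000967). For Saa3 (r = 0.71, exact permutation p = 0.0575), Nlrp3 (r = 0.70, exact permutation p = 0.0583) and Nos2 (r = -0.68, exact permutation p = 0.0623) the test over 8 animals did not pass, with r of the same sign. Centred within genotype and without the same 2 animals, r was 0.91 for Il1rn, 0.88 for Casp1 and 0.80 for Saa3. It was 0.39 for Nlrp3 and -0.42 for Nos2. Exact permutation over all orders of these 8 animals gave p = 0.00057, 0.00122, 0.0142, 0.337 and 0.293 in that order. Within the 7 animals with the highest marker level r was 0.80 for Il1rn, 0.82 for Casp1 and 0.78 for Nlrp3, but 0.24 for Saa3 and -0.50 for Nos2, with exact permutation adjusted p = 0.104, 0.104, 0.107, 0.780 and 0.488 in that order. Thus r was as large for Nlrp3 without the 3 lowest animals as over all 10, and closer to 0 for Saa3 and Nos2. By rank Casp1 alone passed among the 7 animals (rho = 0.96, exact permutation adjusted p = 0.0222). The remaining 3 animals stood apart for Saa3, with 46.8 and 46.1 CPM in Srgn-/- animals 2 and 3 and 15.9 CPM in Srgn+/+ animal 1, against 145.7 to 476 CPM in the 7. Against markers of lipid-associated macrophages in place of these, Il1rn, Casp1, Saa3 and Nos2 passed by r and Nlrp3 did not (r = 0.65, permutation p = 0.0461, adjusted p = 0.0738).

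**Figure D3:**
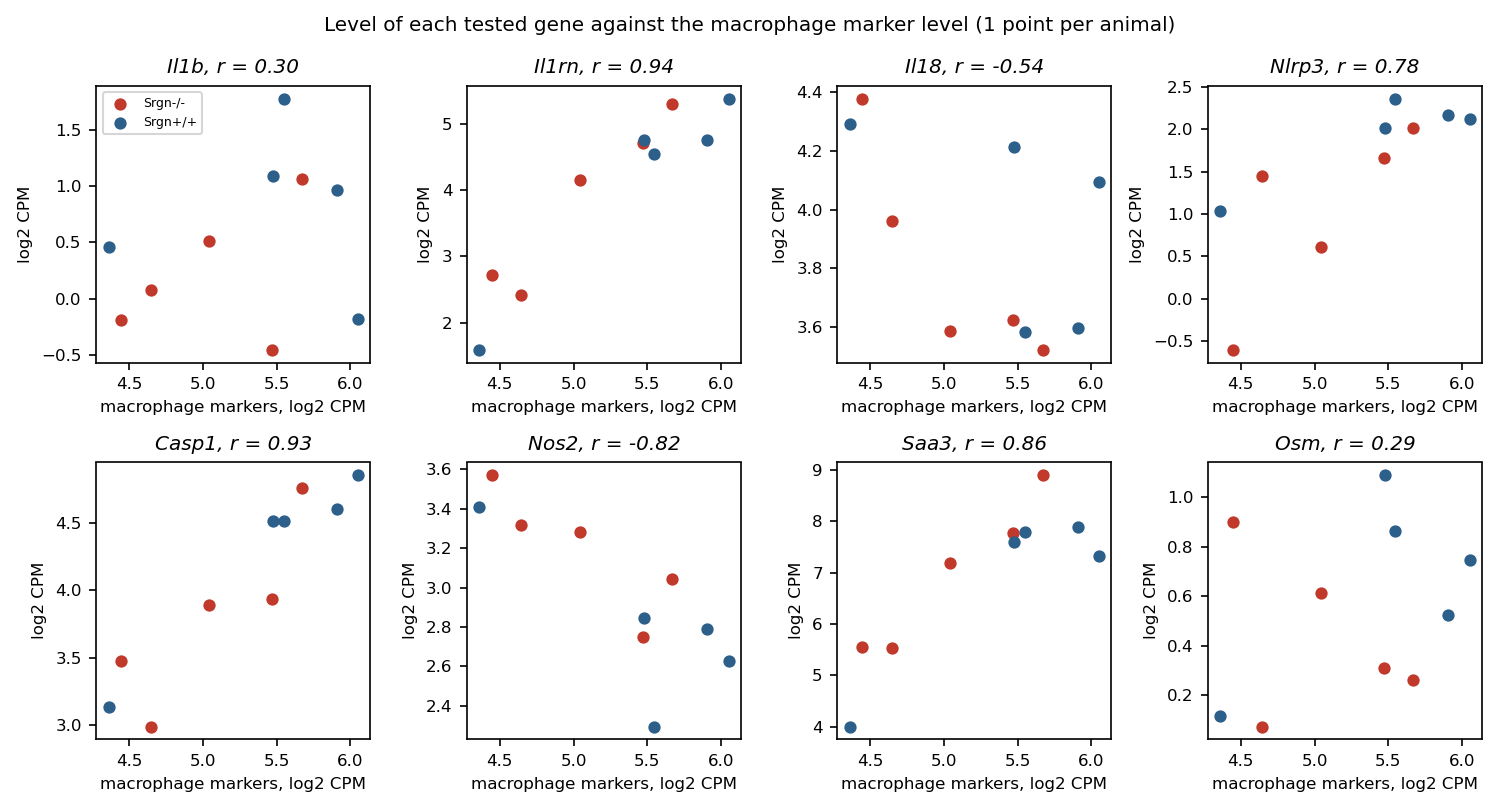
Level of each tested gene (vertical axis, log2 CPM) against the macrophage marker level (horizontal axis, mean log2 CPM of 14 genes), 1 point per animal, Srgn-/- in red and Srgn+/+ in blue, with Pearson's r over 10 animals. Il1rn (0.94) and Casp1 (0.93) climb in both genotypes, Nos2 (-0.82) descends, and Il1b and Osm scatter.

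Marker levels of several cell types differed in value between the genotypes. The summed level of the 15 macrophage markers in the table ran from 1749 to 3425 CPM in Srgn-/- and from 1678 to 5723 CPM in Srgn+/+. Of the 14 tested, 14 had lower values in Srgn-/-, 2 of them at an unadjusted p under 0.05 and 0 past the adjusted threshold in edgeR. Of these markers C1qa was under 1 CPM. Lymphocyte markers stood lower too. The summed level of 10 T cell markers was 17.3 to 24.5 CPM in Srgn-/- and 26.7 to 73.9 CPM in Srgn+/+, without overlap. Of the 8 tested, 8 had lower values, 7 of them at an unadjusted p under 0.05 and 0 at the adjusted threshold in edgeR. Over all genes tested, 50.3% had lower values in Srgn-/- and 12.8% had an unadjusted p under 0.05 in edgeR. For 2.78% of all genes tested, taken singly, the genotypes did not overlap. All 7 B cell markers and all 4 monocyte markers tested had lower values in Srgn-/- as well. In each of these lists 1 marker had an unadjusted p under 0.05 and 0 passed the adjusted threshold in edgeR. Endothelial markers went the other way, with 6 of the 6 tested higher in Srgn-/- (median log2 0.33), 3 of them at an unadjusted p under 0.05 and 0 at the adjusted threshold in edgeR. Their summed level was 610 to 842 CPM in Srgn-/- and 547 to 725 CPM in Srgn+/+. It was 822 to 842 CPM in Srgn-/- animals 2, 3 and 5 and 725 CPM in Srgn+/+ animal 1, which were also the animals highest for Nos2 in each genotype. Within each genotype the summed level of 6 mesothelial markers was highest in the same animals, with 308 to 457 CPM in those of Srgn-/- and 525 CPM in Srgn+/+ animal 1. Across genotypes the orders differed from that of Nos2. Srgn+/+ animals 2 (409 CPM) and 4 (321 CPM) stood above Srgn-/- animal 5 for the mesothelial sum but below it for Nos2. Srgn-/- animal 4 (772 CPM) stood above Srgn+/+ animal 1 for the endothelial sum but below it for Nos2. The relation of Nos2 to either list was not tested. The marker levels of macrophages and adipocytes had r = -0.87 over the animals. Against the adipocyte markers Il1rn (r = -0.88), Casp1 (r = -0.85) and Saa3 (r = -0.84) passed and Nlrp3 (r = -0.50) and Nos2 (r = 0.49) did not, and the part of these cells in the values of the members was not tested. The summed level of 9 adipocyte markers ran from 41146 to 62019 CPM in Srgn-/- and from 42195 to 69541 CPM in Srgn+/+. Of the 10 neutrophil markers 4 were tested and 6 were under 1 CPM, among them Ly6g and Ngp. The summed level of all 10 was 20.8 to 68.4 CPM in Srgn-/- and 9.43 to 71.2 CPM in Srgn+/+. RNA typical of epididymis and testis was highest in Srgn-/- animals 3 (8738 CPM summed over 21 markers) and 5 (1291 CPM) and Srgn+/+ animal 4 (1395 CPM), against at most 150.2 CPM in the others. A setting without those 3 libraries was not planned in advance. In it the 5 members above still passed by r, and 0 members passed the test of genotype. Saa3 and Nos2 did not pass there by rho (exact permutation adjusted p = 0.267 and 0.176).

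Members were also set against each other over the 10 animals, a comparison of 28 pairs chosen after their values were seen. Il1rn and Casp1 moved together most evenly, with r = 0.93 (permutation p = 9e-05, adjusted p = 0.00252) and rho = 0.95 (permutation p = 0.00014, adjusted p = 0.00392). Without the 2 animals farthest from the median of Il1rn, r was 0.88 (exact permutation p = 0.000942), and centred within genotype it was 0.97. Il1rn and Saa3 had r = 0.95 (permutation p = 0.00052, adjusted p = 0.00728) but rho = 0.77 (permutation p = 0.0126, adjusted p = 0.0706), with r = 0.86 without the 2 farthest animals (exact permutation p = 0.0200). Casp1 and Saa3 likewise passed by r (0.86, permutation p = 0.00157, adjusted p = 0.0114) and not by rho (0.79, permutation p = 0.00863, adjusted p = 0.0706), with r = 0.74 without the 2 farthest animals (exact permutation p = 0.0278). Nlrp3 and Nos2 ran against each other, with r = -0.83 (permutation p = 0.00163, adjusted p = 0.0114) and rho = -0.85 (permutation p = 0.00247, adjusted p = 0.0346), and r = -0.85 without the 2 farthest animals (exact permutation p = 0.0059). These were the 4 pairs that passed by r, 2 of which passed by rho, and no pair with Il1b, Il18 or Osm passed.

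The genes most like each well-covered member were sought among 10209 other genes with a mean of at least 5 CPM, by r over the 10 animals centred within genotype. With so few animals and so many genes, high values arise readily, and they are given as a description without a test. Nearest to Casp1 were Vps26a, of the retromer that sorts endosomal cargo (0.99), Slc7a7, an amino acid transporter (0.99), and Actr2, an actin-nucleating subunit (0.98). Nearest to Saa3 were Arpc1b, another subunit of that actin complex (0.99), Prps1, an enzyme of nucleotide synthesis (0.99), and Hp, which encodes the acute phase protein haptoglobin (0.99). Nearest to Il1rn were Tk1, a thymidine kinase (0.99), Acer3, a ceramidase (0.99), and the histone gene Hist1h2bm (0.99). Nos2 was nearest to Nr3c1, the glucocorticoid receptor (0.97), Fat4, a large cadherin (0.97), and Pde3a, a phosphodiesterase (0.97). Il18 was nearest to Lpcat4, a lysophospholipid acyltransferase (0.97), Adamtsl1 (0.95) and Itfg2 (0.95).

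The other genes of these pathways were read from 8 lists that hold no member. Of 115 genes listed, 110 were in the table and 94 were tested, and 0 passed the edgeR test in either direction. At an unadjusted p under 0.05 there were 11 of the 94, against 12.8% of all genes tested, and 66 had lower values in Srgn-/- (70.2%, against 50.3% of all genes tested). Their median log2 fold change was -0.14, against -0.00138 over all genes tested. Macrophage markers moved with them, with a median of -0.45 and lower values for 14 of 14, and their part in these values was not tested. DESeq2 called 2 of the 94, Orm1 higher and Ticam1 lower, against 1.82% of all genes given an adjusted p. Of the 32 pathway genes named here, 16 had a log2 fold change that moved by more than 1.5 times when some 1 animal was left out, and Il10 alone changed sign.

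Inflammasome assembly and pyroptosis genes had the lowest median of the 8 lists, -0.38, with lower values for 15 of 18 tested, beside a median of -0.45 for the macrophage markers. Gsdmd, the pore protein that caspase-1 cuts, had 16.6 ± 2.71 CPM in Srgn-/- and 21.9 ± 4.86 CPM in Srgn+/+ (log2 -0.40, edgeR adjusted p = 0.369). P2rx7, the ATP-gated channel that triggers NLRP3, had 22.7 ± 6.16 CPM in Srgn-/- and 35.1 ± 14.9 CPM in Srgn+/+ (log2 -0.63, edgeR adjusted p = 0.385). Naip2, a sensor of bacterial proteins, had 8.20 ± 4.71 CPM in Srgn-/- and 13.4 ± 4.68 CPM in Srgn+/+ (log2 -0.70, edgeR adjusted p = 0.467), and its near-identical relatives may share reads. Nek7, which binds NLRP3, had higher values, with 79.5 ± 6.53 CPM in Srgn-/- and 72.4 ± 3.46 CPM in Srgn+/+ (log2 0.14, edgeR adjusted p = 0.510).

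No receptor or signal carrier of the cytokines passed the edgeR test. In the IL-1 family list the median was 0.01 and 4 of 9 tested genes had lower values. Il1rl2, a receptor of IL-36, had 2.52 ± 0.704 CPM in Srgn-/- and 1.60 ± 0.663 CPM in Srgn+/+, and Sigirr, an inhibitory receptor, 6.34 ± 2.55 CPM in Srgn-/- and 4.90 ± 0.879 CPM in Srgn+/+ (edgeR adjusted p = 0.434 and 0.596). Il1rl1, the IL-33 receptor, had 7.87 ± 0.803 CPM in Srgn-/- and 7.17 ± 0.955 CPM in Srgn+/+, and its ligand Il33 8.24 ± 0.871 CPM in Srgn-/- and 9.10 ± 1.85 CPM in Srgn+/+. In the TNF list the median was -0.16, with lower values for 9 of 10. Tnfrsf1b, the second TNF receptor, had 115 ± 40.5 CPM in Srgn-/- and 164 ± 65.2 CPM in Srgn+/+ (log2 -0.51, edgeR adjusted p = 0.516). Rhbdf2, which carries the protease that releases TNF, had 37.2 ± 5.93 CPM in Srgn-/- and 44.6 ± 5.75 CPM in Srgn+/+ (edgeR adjusted p = 0.424). The adaptors Tradd (log2 -0.35) and Traf2 (log2 -0.19) did not pass either.

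In the IL-6 family list the median was -0.13, with lower values for 8 of 12. Tyk2, a Janus kinase, had 14.3 ± 2.05 CPM in Srgn-/- and 19.4 ± 2.13 CPM in Srgn+/+ (log2 -0.43, edgeR adjusted p = 0.247), and all 5 Srgn-/- animals lay below all 5 Srgn+/+ animals. Stat3, the transcription factor that IL-6 and oncostatin M activate, had 283 ± 59.7 CPM in Srgn-/- and 361 ± 60.0 CPM in Srgn+/+ (log2 -0.35, edgeR adjusted p = 0.377), and its target Socs3, a feedback inhibitor, 1.43 ± 0.332 CPM in Srgn-/- and 2.39 ± 0.731 CPM in Srgn+/+ (log2 -0.73, edgeR adjusted p = 0.357). Il11ra1, a receptor of IL-11, had a log2 fold change of -0.17.

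Toll-like receptor and NF-κB genes had a median of -0.18, with lower values for 19 of 24. Ticam1, the adaptor of TLR3 and TLR4, had 15.6 ± 1.46 CPM in Srgn-/- and 20.9 ± 1.87 CPM in Srgn+/+ (log2 -0.42, edgeR adjusted p = 0.201) with no overlap of the genotypes, and passed in DESeq2 (adjusted p = 0.0459). Tlr4, the endotoxin receptor, had 39.7 ± 3.19 CPM in Srgn-/- and 46.7 ± 8.47 CPM in Srgn+/+ (edgeR adjusted p = 0.449). The inhibitor gene Nfkbie (log2 -0.48) and Rela, a subunit of NF-κB (log2 -0.16), did not pass. Ticam1 and Tyk2 were the 2 of the 94 genes whose genotypes did not overlap, against 2.78% of all genes tested.

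Acute phase genes had a median of 0.13, with lower values for 4 of 10. Orm1, which encodes orosomucoid, had 1024 ± 93.1 CPM in Srgn-/- and 787 ± 104 CPM in Srgn+/+ (log2 0.38, edgeR adjusted p = 0.242; DESeq2 adjusted p = 0.0440), and the related genes of the family may share reads. Lcn2, a siderophore-binding protein, ranged from 51.7 to 579 CPM in Srgn-/- and from 25.1 to 87.1 CPM in Srgn+/+ (log2 1.90, edgeR adjusted p = 0.353), and its log2 fold change was 0.54 without Srgn-/- animal 3, the library with the most epididymis RNA. Cp, ceruloplasmin (log2 0.19), and Serpina3n, a protease inhibitor (log2 0.25), did not pass.

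Of the arginine and nitric oxide genes 5 were tested, with a median of -0.00295. Arg2, the mitochondrial arginase, had 4.27 ± 1.73 CPM in Srgn-/- and 2.29 ± 0.855 CPM in Srgn+/+ (log2 0.89, edgeR adjusted p = 0.348), and Arg1, the cytosolic arginase of alternatively activated macrophages, 4.77 ± 2.83 CPM in Srgn-/- and 3.29 ± 0.803 CPM in Srgn+/+ (log2 0.54, and 0.15 without Srgn-/- animal 1; edgeR adjusted p = 0.568). Nos3, the endothelial nitric oxide synthase (log2 -0.25), and Gch1, which makes a cofactor of these synthases (log2 -0.37), had lower values and did not pass. Among 6 anti-inflammatory cytokine genes the median was -0.11. The chains of the IL-10 receptor had lower values, with 240.0 ± 48.0 CPM in Srgn-/- and 356 ± 81.4 CPM in Srgn+/+ for Il10rb (log2 -0.57, edgeR adjusted p = 0.247) and 22.4 ± 8.44 CPM in Srgn-/- and 39.7 ± 17.2 CPM in Srgn+/+ for Il10ra (log2 -0.82, edgeR adjusted p = 0.363). Il10 itself was low, with 1.49 ± 1.50 CPM in Srgn-/- and 1.32 ± 0.787 CPM in Srgn+/+ (log2 0.19, and -0.55 without Srgn-/- animal 1), and Tgfb1 had a log2 fold change of -0.19.

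**Figure D4:**
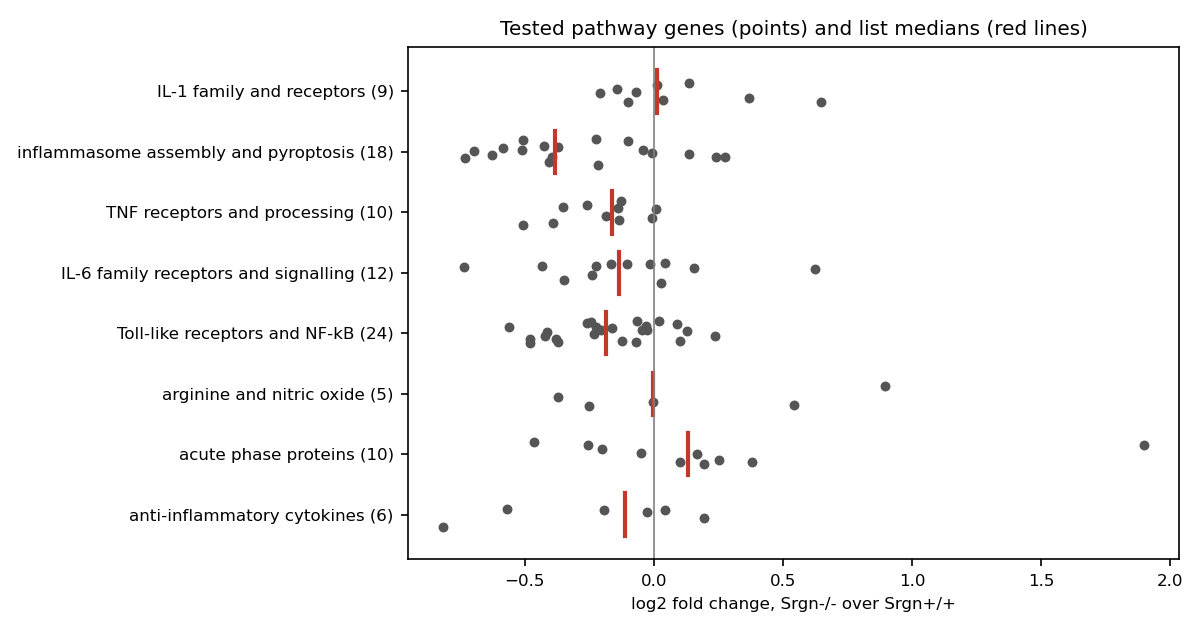
Fitted log2 fold change of Srgn-/- over Srgn+/+ (horizontal axis) for each of the 94 tested pathway genes (points) in 8 lists (rows, with the number tested), and the median of each list (red lines). Inflammasome assembly genes have the lowest median, -0.38, none of the genes passed the edgeR test, and Lcn2 is the point at 1.90.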

How the data were processed

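Total RNA of epididymal fat from 10 mice was amplified with the Ion AmpliSeq mouse transcriptome kit and read on an Ion S5 XL sequencer, per the labels' protocols. Genome build mm9 is named, per the submitters' processing notes, and no source used here names the aligner or counter. The authors deposited raw read counts for 1 amplicon per gene, and the authors deposited RPM values, which equal each count scaled by its column total (largest difference 0.000591). Sequences and strand neighbours come from GRCm38 annotation and were used without the files' coordinates.

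Genotypes were taken from the labels. Raw counts were tested with edgeR 4.0.16 in R 4.3.3 (filterByExpr with minimum count 10 and minimum total 15, TMM factors, robust quasi-likelihood F test, two-sided), and p-values were Benjamini-Hochberg adjusted over 12719 genes at a threshold of 0.05. DESeq2 1.42.0 and limma 3.58.1 were alternatives, and limma-voom used a quality weight for each library. Further alternatives were upper-quartile or no factors, other filters, log2(RPM + 1) and each animal left out. Log2 CPM used a prior count of 2, and correlations used 100000 permutations for 10 animals and all orders for fewer. Named genes are the members, Srgn, the 4 genes with the smallest p in each pathway list, and the 3 genes most like each member with a mean of at least 5 CPM. The members and lists were chosen with earlier results of these data known. Replicates are separate animals.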

Additional observations from a re-analysis of the deposited data

How the results depend on the processing

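For genotype, 0 of the members passed in the edgeR test as reported and under all 18 alternatives (DESeq2 gave Osm no adjusted p), and 0 of the pathway genes except with DESeq2, which called 2. Over all genes the number called was 1 as reported, 3 with no low-count filter, 226 with DESeq2 and 10 with limma-voom, and 1 to 2 when 1 animal was left out; the cause was not tested. Leaving out 1 animal gave 0 members and 0 pathway genes for genotype in every case, and 5 to 6 members whose r against the macrophage markers passed. Among these Nos2 always had a negative r. The member added without Srgn+/+ animal 5 was Il18, also with a negative r (-0.74, exact permutation adjusted p = 0.0431). By rho, Saa3 and Nos2 did not pass without Srgn+/+ animal 1 or without Srgn-/- animal 2, 3 or 5 (exact permutation adjusted p from 0.0590 to 0.0692). With lipid-associated macrophage markers 4 members passed by r, without Nlrp3 (r = 0.65, permutation adjusted p = 0.0738). The log2 fold change of Saa3 changed sign with limma-voom (-0.48), without Srgn-/- animal 1 (-0.54) and without Srgn+/+ animal 1 (-0.12), over a range of -0.54 to 0.42 when 1 animal was left out. No other tested member changed sign in its fold change. Tnf and Il6 gave a fit with no low-count filter alone among the alternatives that kept all animals (log2 -0.24 and -1.04, edgeR adjusted p = 0.926 and 0.711). Against adipocyte markers 3 members passed in place of 5, and in the 7 animals with the most macrophage RNA 0 passed by r, where fewer animals were tested. Both were chosen after seeing the data, and leaving out the 3 libraries with the most epididymis RNA was not planned in advance either. In the 7 animals Il1b (r = -0.0901), Il18 (r = 0.267) and Osm (r = -0.0421) had the opposite sign. No paired analysis was possible because the labels give no replicate number that links animals of the 2 genotypes. Depth limits Tnf, Il6, Il1b, Osm and Nlrp3, with at most 43 reads in a library.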
